A study of Mus musculus with 5 samples.

Results

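The genes of hepatic glucose production and the fasting response described here, Pck1, G6pc, Fbp1, Pcx, Ppargc1a, Igfbp1 and Irs2, were followed over 5 arrays of mouse liver RNA. A probe set, a group of short probes read together as 1 signal, belonged to them if its only annotated gene symbol was 1 of these 7. This gave 16 of the 22690 probe sets of the table, for 7 of its 12393 named genes. Of the 16, 12 were ordinary probe sets and 4 were array controls for Pcx; 13 were above the detection floor used below on all 5 arrays, 2 (of Ppargc1a) on some and 1 (of Pck1) on none.

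Each array held RNA from pooled livers of 1 group of C57B/L mice, which were 8 weeks old and were kept for 2 weeks before the feeding began. The groups received standard chow for 1 week, an atherogenic diet (a feed used to raise blood cholesterol) for 1 week, chow for 10 weeks, the diet for 10 weeks, or the diet for 10 weeks with atorvastatin during the last 3. Atorvastatin, a statin, blocks HMG-CoA reductase and so the making of cholesterol. There was no group given atorvastatin on chow. The sample of the diet at 1 week carries a source name that says chow, while its title, description and protocols say diet, and it is treated here as diet. The number of livers in a pool, sex, diet composition, feeding state and hour of collection are not stated in the labels. With 1 array per group there is no replicate error and no test, and every value below describes these 5 pools only.

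The liver makes glucose in fasting from lactate, glycerol and amino acids. Pyruvate carboxylase (Pcx) turns pyruvate into oxaloacetate, phosphoenolpyruvate carboxykinase (Pck1) turns that into phosphoenolpyruvate, fructose bisphosphatase (Fbp1) acts near the end of the path, and glucose 6-phosphatase (G6pc) releases free glucose. In textbook physiology, glucagon, acting through cyclic AMP and CREB, and glucocorticoids raise transcription of Pck1 and G6pc with the help of the coactivator Ppargc1a, and insulin lowers it by removing FOXO1 from the nucleus. Insulin also represses Igfbp1, a secreted binding protein of insulin-like growth factors, and Irs2, an adaptor that carries the insulin receptor's signal onward. Many of these transcripts also follow the hour of the day.

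On the diet at 10 weeks, G6pc was 2.70-fold lower than on chow, and it was the 1 gene of the 7 at least 2-fold lower, where 3.07% of all genes were. By the brightest probe set of each, 6 of the 7 had a lower signal, where 45.7% of all genes did, but Ppargc1a is higher by another of its probe sets and Fbp1 (-0.15 on the log2 scale) turns to 0.15 under quantile normalization. With atorvastatin on the diet G6pc, Igfbp1 and Pck1 were at least 2-fold below the 10-week chow array, where 2.46% of all genes were. All 7 brightest probe sets were below that array, against 47.8% of all genes, although 2 of the Pcx array controls were above it (0.70 and 0.49) and Fbp1 turns to 0.13 under quantile normalization. The 10-week chow array had the highest G6pc and Pck1 signals of the 5, and against the 1-week chow array the G6pc difference on the long diet was 1.70-fold.

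Signals are linear and relative, and each gene is compared only with itself. For G6pc, which catalyses the last step of glucose release, the signal was 9103 on chow at 1 week, 6273 on the diet at 1 week, 14502 on chow at 10 weeks, 5369 on the diet at 10 weeks and 3608 with atorvastatin. Both chow arrays stood above all 3 diet arrays, and the highest signal was 4.02 times the lowest. The share of all genes with such an order was not taken. Pck1, which commits oxaloacetate to the path, read 10437 on chow and 9047 on the diet at 1 week, and 15992 on chow, 8083 on the diet and 7879 with atorvastatin at 10 weeks. The chow arrays were again above the diet arrays, but 4 of the 5 signals lay between 7879 and 10437, and the 10-week chow array stood apart from them. A further Pck1 probe set, 1455209_at, read 99.5 to 111 and was below the floor of 138.7 on all 5 arrays. This floor is the 40th percentile of all signals, below which values were treated as not measured.

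Fbp1 was the flattest of the path's enzymes. Its signal was 20660 on chow and 18181 on the diet at 1 week, and 26066 on chow, 23459 on the diet and 22744 with atorvastatin at 10 weeks, with the highest 1.43 times the lowest. Both 1-week arrays were below all 3 of the 10-week arrays, and within each time the diet arrays were below the chow array. Between the chow arrays, 10 weeks against 1, the log2 ratio was 0.34 on the signals as deposited, but -0.20 under quantile normalization and -0.46 relative to the hepatocyte markers described below. Pcx, which feeds carbon into the path, was higher on the diet than on chow at both times by its brightest probe set. Probe set 1416383_a_at read 5436 on chow and 9303 on the diet at 1 week, and 5013 on chow, 6805 on the diet and 4691 with atorvastatin at 10 weeks. The 2 arrays of the diet without the statin were the highest, and the atorvastatin array was the lowest, below both chow arrays.

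Igfbp1 read 14686 on chow and 12674 on the diet at 1 week, then 12657 on chow, 7243 on the diet and 5781 with atorvastatin at 10 weeks. The diet and chow arrays of different weeks, 12674 and 12657, were almost equal, and the 2 arrays of the long diet stood apart below them. Irs2, with 1 probe set, read 281 on chow and 287 on the diet at 1 week, and 299 on chow, 199.7 on the diet and 152 with atorvastatin at 10 weeks. It showed the same split into 3 higher and 2 lower arrays, at a dim signal that neared the floor with atorvastatin.

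**Figure D1:**
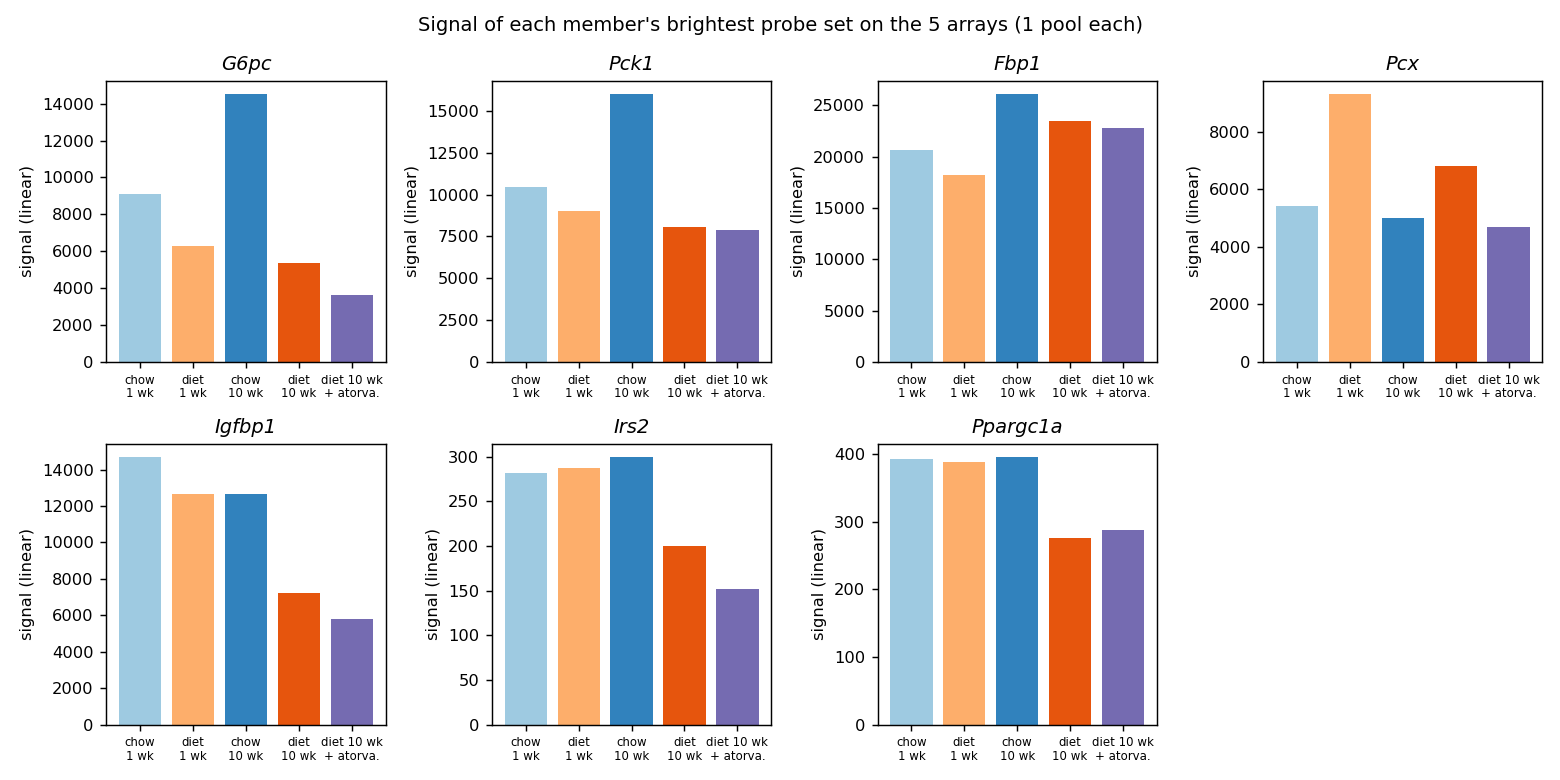
Linear signal (y axis) of the brightest probe set of each of the 7 genes on the 5 arrays (x axis), 1 bar per array, with no error bar because each group is 1 pool. G6pc and Pck1 have their highest bars on chow at 10 weeks (14502 and 15992), Igfbp1 and Irs2 have their lowest bars on the 2 long-diet arrays, and Pcx has its highest bar on the diet at 1 week (9303).

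Ppargc1a, the coactivator that links fasting signals to the genes above, had 5 probe sets, all dim. The brightest, 1437751_at, read 393 on chow and 388 on the diet at 1 week, and 396 on chow, 277 on the diet and 288 with atorvastatin at 10 weeks. It thus divided the arrays as Igfbp1 and Irs2 did. Probe set 1460336_at did not: it read 360 and 479 at 1 week, and 256 on chow, 295 on the diet and 196 with atorvastatin at 10 weeks. Probe set 1456395_at read 299.7 and 216 at 1 week and 264, 215 and 175 in the same order at 10 weeks. The remaining probe sets were above the floor only in part: 1434100_x_at read 230.2 and 281 at 1 week and 169.7 on chow at 10 weeks, with 117 and 77.5 on the long-diet arrays, and 1434099_at read 251 and 203 at 1 week and 48.3 to 101 on the 10-week arrays. On the diet against chow at 10 weeks the log2 ratio was -0.52 by the brightest probe set, -0.30 by 1456395_at, and 0.20 by 1460336_at, so the probe sets disagree in sign and no single direction can be given for the gene.

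The 4 Pcx controls, named for their place along the transcript, gave a similar caution. The control nearest the 3' end read 2643, 4157, 2192, 2244 and 1979 in the array order used above, with the diet at 1 week again highest. The middle B control read 1092, 1597, 1009, 1480 and 1000, and the middle A control 718, 876, 583, 1048 and 947. Nearest the 5' end the signal was 691, 431, 547, 937 and 766, with the diet at 1 week now lowest. The ratio of the 3' to the 5' control was 9.64 on the diet at 1 week and 2.39 to 4.01 on the other arrays. Over the same arrays the 3' to 5' ratio was 0.783 to 1.01 for Gapdh and 1.17 to 1.73 for beta-actin, with the highest Gapdh value on the diet at 1 week and the highest beta-actin value on chow at 10 weeks, the array with the highest G6pc and Pck1 signals. On the diet against chow at 1 week the log2 ratio was 0.77 by 1416383_a_at, 0.65 by the 3' control, 0.55 and 0.29 by the middle controls and -0.68 by the 5' control. At 10 weeks the corresponding values were 0.44, 0.03, 0.55, 0.85 and 0.78, all positive. The part of RNA quality or probe position in the Pcx, G6pc and Pck1 values was not tested.

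For the 3 genes that were at least 2-fold lower with atorvastatin than on chow, the 250 bases before the gene start are shown, from RefSeq on GRCm38.p6. The choice to print these 3 was made after their values were seen. All 7 genes were matched, Pcx with 2 windows. The windows were searched on both strands for 5 motifs: the cyclic AMP response element TGACGTCA, its shorter core TGACG (which lies within it), the forkhead motif GTAAACA, the insulin response element core CAAAACA, and the D-box TTATGNAA of clock-output factors. Capitals mark the matches, which on the lower strand read CGTCA and TGTTTTG.
Pck1, chr2:173152823-173153072, plus strand: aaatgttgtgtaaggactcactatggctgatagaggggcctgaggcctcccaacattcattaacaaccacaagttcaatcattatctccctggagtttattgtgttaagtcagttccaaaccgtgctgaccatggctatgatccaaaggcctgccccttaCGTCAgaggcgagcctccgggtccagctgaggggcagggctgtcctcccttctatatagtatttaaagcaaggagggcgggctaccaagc
G6pc, chr11:101367466-101367715, plus strand: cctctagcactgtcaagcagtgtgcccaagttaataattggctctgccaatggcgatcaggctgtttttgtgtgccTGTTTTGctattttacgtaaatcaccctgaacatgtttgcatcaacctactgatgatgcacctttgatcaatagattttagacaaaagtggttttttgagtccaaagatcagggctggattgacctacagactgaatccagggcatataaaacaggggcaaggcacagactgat
Igfbp1, chr11:7197537-7197786, plus strand: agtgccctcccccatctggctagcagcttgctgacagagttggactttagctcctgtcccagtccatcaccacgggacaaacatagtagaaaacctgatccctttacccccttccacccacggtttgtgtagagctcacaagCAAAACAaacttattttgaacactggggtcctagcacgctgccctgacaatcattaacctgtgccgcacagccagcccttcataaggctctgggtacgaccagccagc

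In Pck1 the core TGACG was found on the lower strand, 90 to 86 bases before the start, and Ppargc1a had one 49 to 45 bases before its start. The insulin response element core was found in G6pc (174 to 168 bases before the start), Igfbp1 (108 to 102) and Irs2 (37 to 31). Of all 32851 promoter windows of this length, 17.8% held TGACG and 5.56% held CAAAACA. The full TGACGTCA (1.55% of windows), GTAAACA (3.17%) and TTATGNAA (3.07%) were in no window of the 7 genes. These are matches of letters within 250 bases and not shown sites of binding, and motifs farther away were not searched.

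On the diet against chow at 10 weeks the log2 ratios were -1.43 for G6pc, -0.98 for Pck1, -0.81 for Igfbp1, -0.58 for Irs2, -0.52 for Ppargc1a, -0.15 for Fbp1 and 0.44 for Pcx, each from the brightest probe set. At least 2-fold lower was 1 gene, and 0 were at least 2-fold higher, where 3.07% of all 9232 genes measured in this pair were lower and 3.59% higher. Pck1 at 1.98-fold lay just inside the threshold. The median of the 7 was -0.58, and that of all genes was 0.05. Counted from the lowest ratio, G6pc ranked 76 of 9232 genes, Pck1 ranked 299 and Igfbp1 ranked 510. Ranks were also taken among the 1007 genes with a geometric mean signal above 2000, a limit chosen after the values were seen. There G6pc ranked 16, Pck1 34 and Igfbp1 57, and 3.28% of those genes were at least 2-fold lower.

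By the brightest probe sets, G6pc, Pck1, Igfbp1, Irs2 and Ppargc1a differed less between diet and chow at 1 week than at 10 weeks. Pcx differed more and Fbp1 by a similar amount. G6pc had a log2 ratio of -0.54 (1.45-fold), Pck1 and Igfbp1 each -0.21, Fbp1 -0.18, Ppargc1a -0.02, Irs2 0.03 and Pcx 0.77 (1.71-fold). None of the 7 was past 2-fold in either direction, against 1.24% of 8799 genes lower and 1.06% higher. Pcx was the member with the largest difference here and G6pc the next, although the 5' control of Pcx was at -0.68. The other Ppargc1a probe sets lay between -0.47 and 0.41. Between the diet arrays of 10 weeks and 1 week the log2 ratio was -0.81 for Igfbp1, -0.52 for Irs2, -0.49 for Ppargc1a, -0.45 for Pcx, -0.22 for G6pc, -0.16 for Pck1 and 0.37 for Fbp1. Again 0 of 7 were past 2-fold by the brightest probe set, against 8.45% of 9088 genes in either direction, whose median was 0.11. Among their other probe sets, the 5' control of Pcx was 2.17-fold higher (1.12), opposite in sign to the brightest. Ppargc1a probe set 1434100_x_at was at least 2.02-fold lower (-1.02, a bound). Relative to the hepatocyte markers, the added scale described below, these diet arrays gave -1.37 for Igfbp1, -1.09 for Irs2, -1.05 for Ppargc1a and -1.02 for Pcx. G6pc was then at -0.79, Pck1 at -0.73 and Fbp1 at -0.20. That scale lowers every gene's ratio by 0.57 here, and the share of all genes past 2-fold on it was not taken.

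Atorvastatin on the diet, set against the diet alone, gave log2 ratios of -0.57 for G6pc (1.49-fold), -0.54 for Pcx (1.45-fold), -0.40 for Irs2, -0.33 for Igfbp1, -0.04 for Pck1, -0.04 for Fbp1 and 0.06 for Ppargc1a. Ppargc1a was lower by 1460336_at (-0.59) and 1456395_at (-0.30), and its remaining probe sets were below the floor on both arrays. By the brightest probe sets none of the 7 was past 2-fold, against 2.12% of 9295 genes lower and 2.16% higher. By these probe sets the signal with the statin lay farther from chow than that of the diet alone for G6pc, Igfbp1 and Irs2, and back near chow for Pcx. Pck1 and Fbp1 were almost level between the 2 arrays. The Pcx controls differed: with the statin against 10-week chow, the middle A and 5' controls were at 0.70 and 0.49. The 3' and middle B controls were at -0.15 and -0.01.

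Against the 10-week chow array, the atorvastatin array gave -2.01 for G6pc (4.02-fold), -1.13 for Igfbp1 (2.19-fold), -1.02 for Pck1 (2.03-fold) and -0.98 for Irs2 (1.97-fold, just inside the threshold). Ppargc1a was at -0.46, Fbp1 at -0.20 and Pcx at -0.10. Thus 3 genes were at least 2-fold lower and 0 higher, where 2.46% of 9246 genes were lower and 3.05% higher. G6pc ranked 10 of all 9246 genes from the lowest and 1 of the 1007 bright genes. Both 10-week comparisons with chow use the same chow array, and the atorvastatin array is compared in 2 of the comparisons, so their values are not independent of each other.

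**Figure D2:**
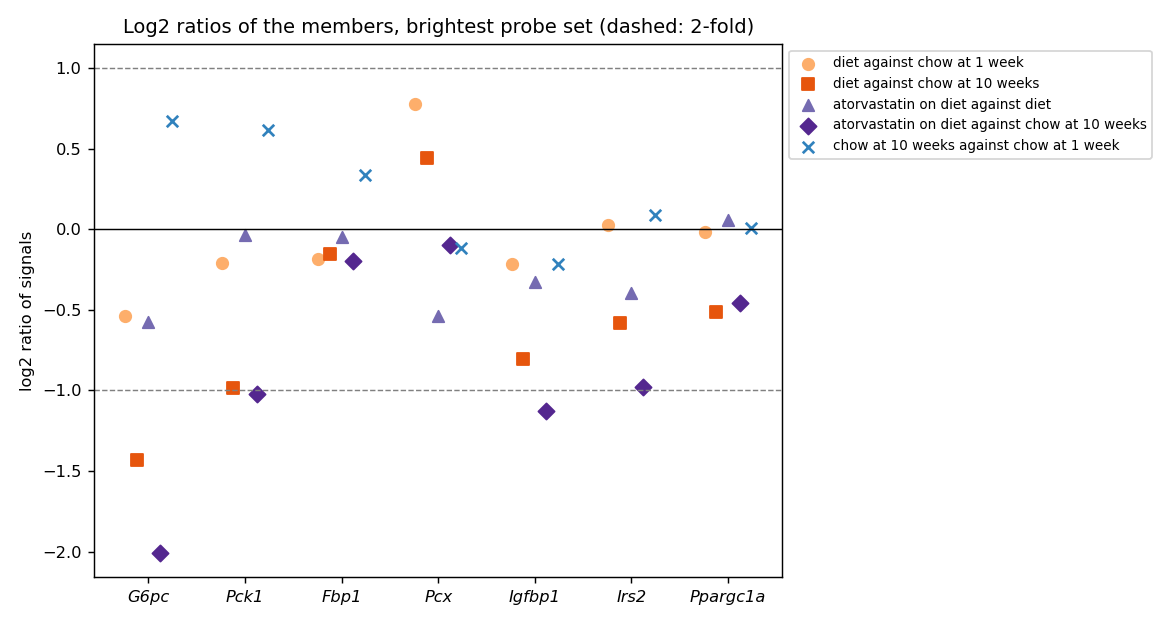
Log2 ratio of signals (y axis) for the brightest probe set of each gene (x axis) in 5 comparisons, 1 symbol per comparison, with dashed lines at 2-fold. G6pc lies below the lower line for the diet at 10 weeks (-1.43) and for atorvastatin against chow (-2.01), Pcx lies above 0 for the diet at both times, and the crosses of the 2 chow arrays are at 0.67 for G6pc and 0.62 for Pck1.

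The 2 chow arrays, which differ in weeks on chow and in age, show how far the reference moved. Between them G6pc was 1.59-fold and Pck1 1.53-fold higher at 10 weeks (log2 0.67 and 0.62), Fbp1 was at 0.34, Irs2 at 0.09, Ppargc1a at 0.01, Pcx at -0.12 and Igfbp1 at -0.21. By these brightest probe sets none was past 2-fold, against 4.39% of 9087 genes in either direction. The other Ppargc1a probe sets were lower at 10 weeks, from -0.18 to -0.86 (a bound). With the 1-week chow array as the reference, the diet at 10 weeks gave -0.76 for G6pc, -0.37 for Pck1, and -1.02 for Igfbp1, so the 1 gene past 2-fold was then Igfbp1 and no longer G6pc. In that pair 2.75% of all genes were at least 2-fold lower. The atorvastatin array gave -1.34 for G6pc and -1.35 for Igfbp1 against that reference, both still past 2-fold, and -0.41 for Pck1, which was not. Of all genes 1.87% were at least 2-fold lower there. Against the mean of both chow arrays, the diet at 10 weeks was at -1.10 for G6pc, -0.91 for Igfbp1 and -0.68 for Pck1.

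The markers of liver cell types also set the 10-week chow array apart. The 8 hepatocyte markers measured, such as albumin (Alb), were all above the floor on every array, which fits the liver label. Their summed signal was 216800 on chow and 189930 on the diet at 1 week, and 370890 on chow, 288130 on the diet and 267450 with atorvastatin at 10 weeks. Their median log2 ratio was 0.80 between the chow arrays, with 8 of 8 higher at 10 weeks, and -0.42 on the diet against chow at 10 weeks, with 8 of 8 lower. Of all genes 48.9% were lower at 10 weeks between the chow arrays, and 45.7% were lower on the diet. The 8 Kupffer cell and macrophage markers summed to 11685 and 10435 at 1 week and to 7484 on chow, 13396 on the diet and 18941 with atorvastatin at 10 weeks. The 6 endothelial markers summed to 3281 and 2545 at 1 week, and to 1734, 3663 and 2559 at 10 weeks. In pooled tissue, fewer cells of a type and less RNA per cell cannot be told apart.

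Taken relative to the median ratio of the hepatocyte markers, a scale added after these levels were seen, the diet at 10 weeks against chow was at -1.02 for G6pc, -0.57 for Pck1, -0.39 for Igfbp1, -0.17 for Irs2, -0.10 for Ppargc1a, 0.27 for Fbp1 and 0.86 for Pcx. On that scale the 2 chow arrays were at -0.13 for G6pc and -0.18 for Pck1, and at -1.01 for Igfbp1. Atorvastatin on the diet against chow was at -1.55 for G6pc, -0.67 for Igfbp1 and -0.56 for Pck1, with G6pc alone past 2-fold. The scale shifts every gene of a comparison by the same amount, and shares of all genes past 2-fold on it were not taken. Its markers include Tat, a gene of the substrate supply list below, and Cyp2e1, which is also a pericentral marker. Under quantile normalization the diet at 10 weeks gave -1.21 for G6pc, -0.80 for Pck1, -0.66 for Igfbp1 and a positive 0.15 for Fbp1. With atorvastatin against chow, quantile normalization put Irs2 (-1.04) past 2-fold and Pck1 (-0.92) inside it, where 2.65% of all genes were at least 2-fold lower.

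Markers within the liver lobule were read because gluconeogenesis is strongest near the portal vein. On the diet at 10 weeks, 4 of 4 periportal markers were lower, with a median log2 ratio of -0.32 and 1 past 2-fold, Arg1, an enzyme of the urea cycle. Of 7 pericentral markers 6 were lower, with a median of -0.998, and Glul, Oat and Lgr5 were past 2-fold. Of all genes in this pair 45.7% were lower and 3.07% were at least 2-fold lower. Kidney also makes glucose with these enzymes. The 6 kidney markers summed to between 816 and 1539, and Umod and Slc22a6 were below the floor on all arrays. Kap (352 to 547) and Slc34a1 (154 to 359) were above it on all arrays, and Slc12a1 and Aqp2 on some. The fat markers Adipoq and Lep were below the floor on all arrays, as were the pancreas markers Cela2a and Cpa1. The pancreas marker Cel (194 to 316) was above it on all arrays, and Ctrb1 on all but chow at 10 weeks. Of 4 skeletal muscle markers 0 to 2 were above the floor on an array, and the 2 red blood cell markers summed to between 338 and 636.

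Around the 7 genes, the steps shared by glycolysis and gluconeogenesis had 0 of 4 measured genes past 2-fold on the diet at 10 weeks, with a median of -0.26. Slc37a4, the carrier that brings glucose 6-phosphate to G6pc in the endoplasmic reticulum, read 5308 and 5518 at 1 week and 4086 on chow, 3967 on the diet and 3868 with atorvastatin at 10 weeks. Its log2 ratio on the diet at 10 weeks was -0.04, beside -1.43 for G6pc. Pck2, the mitochondrial form of Pck1, was above the floor on 1 array only (156 on the diet at 1 week). Of 16 genes of substrate supply and shuttles, 1 was at least 2-fold lower on the diet at 10 weeks and 0 higher (3.07% and 3.59% of all genes). That gene was the lactate carrier Slc16a1, with 2240 on chow and 1094 on the diet. Tat, which breaks down tyrosine and is induced by glucocorticoids, read 16882 and 11328 at 1 week and 20639 on chow, 14048 on the diet and 10039 with atorvastatin at 10 weeks, and stood 2.06-fold lower with atorvastatin than on chow.

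Of 18 regulators of the path measured on the diet against chow at 10 weeks, 1 stood at least 2-fold higher and 1 lower, beside 3.59% and 3.07% of all genes, and the median was -0.10. The higher one was Nr0b2, a bile-acid-induced repressor, with 940 on chow and 2021 on the diet. It read 1134 with atorvastatin, and at 1 week 1425 on chow and 992 on the diet, there lower on the diet. The lower one was Sik1, a kinase induced by cyclic AMP that restrains CREB coactivators. Sik1 read 173 and 247 at 1 week and 453 on chow, 180 on the diet and 130 with atorvastatin at 10 weeks. Its highest signal was on the 10-week chow array, as for G6pc and Pck1, but at 1 week it was higher on the diet, unlike them. Foxo1, whose protein activates G6pc and Igfbp1, was at 0.07 on the log2 scale, the factor Hnf4a at -0.30 and Creb3l3 at -0.42. Of 16 genes of insulin and glucagon signalling 0 were past 2-fold, with a median of 0.04. The insulin receptor Insr was at 0.44, its adaptor Irs1 at -0.55 and the glucagon receptor Gcgr at -0.34.

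The wider responses to fasting and feeding were read from a list each. Of 13 other fasting-induced genes, 4 were at least 2-fold lower and 1 higher on the diet at 10 weeks (3.07% and 3.59% of all genes), with a median of -0.32. Pdk4, which spares pyruvate in fasting by blocking its oxidation, read 1011 and 504 at 1 week and 1214 on chow, 321 on the diet and 316 with atorvastatin at 10 weeks. Like G6pc it was above all diet arrays on both chow arrays, an order whose share among all genes was not taken. Fgf21, a fasting hormone of liver, read 593 on chow at 10 weeks and was below the floor on the diet, at least 4.28-fold lower, with 175 under atorvastatin. Acot1 was 4619 on chow and 1125 on the diet, Cdkn1a 1459 and 321, and Bcl6, a repressor, 147 and 349. Cpt1a, which admits fatty acids to the mitochondrion, was at -0.16.

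In the list of insulin-induced and feeding genes, 9 of 12 were at least 2-fold higher on the diet than on chow at 10 weeks and 0 lower (3.59% and 3.07% of all genes), with a median of 1.35. With atorvastatin against the diet 7 of 12 were at least 2-fold lower and 0 higher (2.12% and 2.16% of all genes). Thrsp, a lipogenic factor, read 2538 on chow, 11938 on the diet and 3922 with atorvastatin at 10 weeks, fatty acid synthase Fasn 1244, 3782 and 1122, and the glycolytic enzyme Pklr 914, 2202 and 1010. With atorvastatin Fasn and Pklr were thus within 1.11-fold of chow and Thrsp was above it by 0.63 on the log2 scale, while G6pc, Igfbp1 and Irs2 were at their lowest of the 5 arrays. At 1 week 0 of 11 measured in this list were past 2-fold, with a median of -0.16. Igfbp2, the relative of Igfbp1, read 10374 on chow, 6179 on the diet and 10207 with atorvastatin at 10 weeks, so with the statin it stood near chow while Igfbp1 did not. None of the 8 IGF-binding protein and IGF1 genes was past 2-fold on the diet at 10 weeks.

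**Figure D3:**
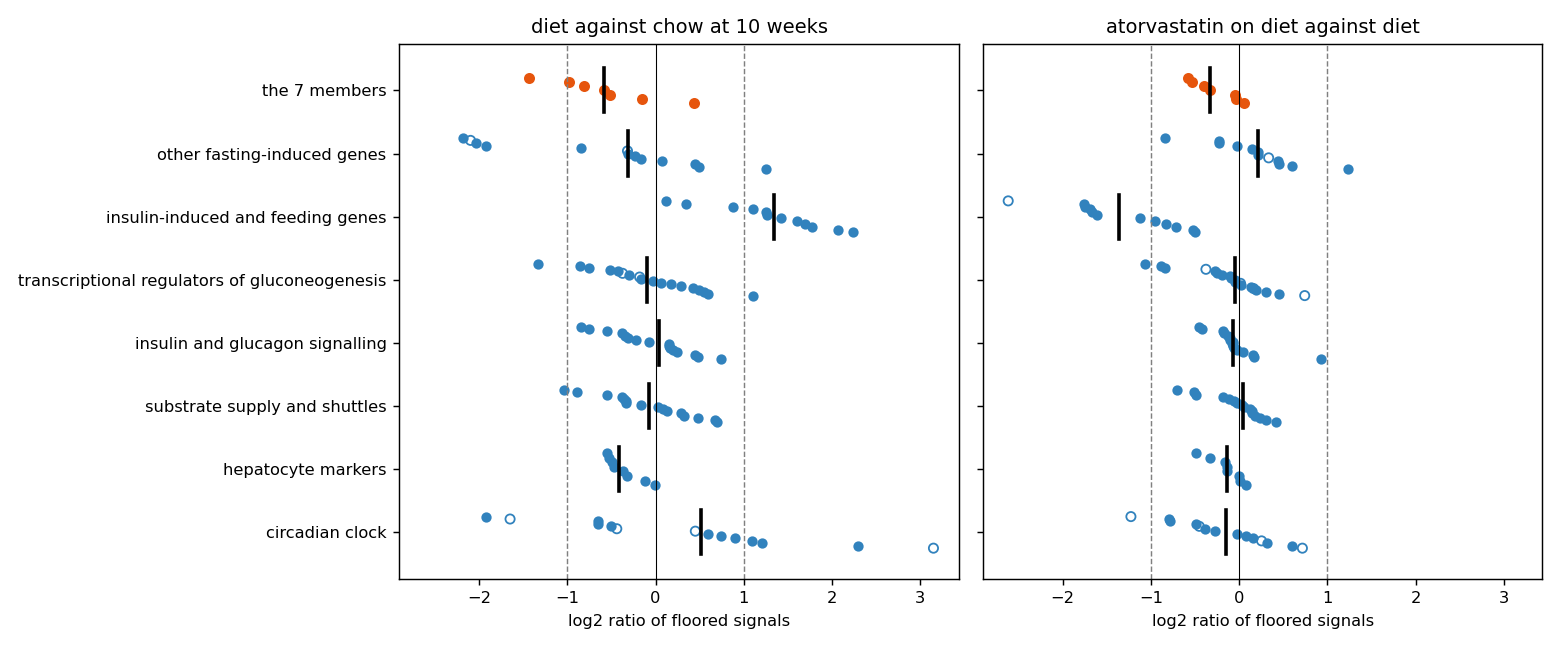
Log2 ratio of floored signals (x axis) of every measured gene of each list (rows), 1 point per gene, for the diet against chow at 10 weeks (left) and atorvastatin on the diet against the diet (right). Black bars are medians, open points are bounds with 1 signal at the floor, and dashed lines mark 2-fold. The 7 genes (orange) have medians of -0.58 and -0.33, and the insulin-induced and feeding genes lie mostly above 2-fold on the left and below it on the right.

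Clock genes differed between the same arrays. Dbp, a clock-output factor, was below the floor on both chow arrays and read 414 on the diet at 1 week, 1231 on the diet at 10 weeks and 716 with atorvastatin. Nr1d1, a clock repressor that also acts on glucose genes, read 321 and 190 on the chow arrays of 1 and 10 weeks and 771 to 1039 on the 3 diet arrays. Arntl, its main target in the clock loop, read 682 and 637 on the chow arrays and 168 to 280 on the diet arrays. In these 3 genes, G6pc and Pck1 the chow signals did not overlap the diet signals. The share of all genes with such a split was not taken, so no link between them is shown. Of 14 clock genes measured, 4 (Dbp, Nr1d1, Nr1d2 and Tef) were at least 2-fold higher and 2 (Arntl and Per1) lower on the diet at 10 weeks, against 3.59% and 3.07% of all genes. At 1 week Dbp, Nr1d1, Nr1d2 and Cry2 were at least 2-fold higher and Arntl and Nfil3 lower, against 1.06% and 1.24%. Whether the livers were taken at the same hour or in the same feeding state was not tested, and the part of either in the values of the 7 genes was not tested.

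The genes whose course over the 5 arrays was nearest to each member were sought among 6929 genes above the floor on all arrays, by the mean absolute difference of centred log2 signals. This was done for the 3 members whose log2 signal spanned at least 1. Nearest to Pck1 were Wtap (0.02), Bco1 (0.08) and Jag2 (0.08), to Igfbp1 Ehhadh (0.06), Ndufaf4 (0.07) and Smarca5 (0.11), and to G6pc Srsf2 (0.19), Sox13 (0.19) and Rc3h2 (0.19). Wtap read 1265 and 1111 at 1 week and 1990 on chow, 1034 on the diet and 984 with atorvastatin at 10 weeks, the shape of Pck1 on a lower scale. Ehhadh, a peroxisomal enzyme of fatty acid oxidation, read 12874 and 11878 at 1 week and 12403, 7082 and 5924 at 10 weeks. With 5 points per gene these matches are a description only.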

How the data were processed

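Biotin-labelled cRNA of 5 liver RNA pools was read on 1 oligonucleotide array each. The authors deposited 1 linear intensity per probe set and array, a MAS5 signal per the submitters' processing notes. The 2% trimmed mean was 500.2 on every array, and rescaling to 500 multiplied signals by 0.9995 to 0.9996. Signals below the 40th percentile (138.7) were set to it and all taken to log2 (Python 3.11.15, numpy 2.4.6, pandas 2.3.3). Of 22690 probe sets 20393 had 1 symbol in the platform annotation, 691 several and 1606 none, and the 64 controls were kept out of gene values. A gene takes its brightest probe set by mean log2 signal, and a fold against a floored signal is a lower bound. The threshold was 2-fold, since 1 array per group allows no test. Named genes are all member probe sets, up to 4 genes per list and direction past 2-fold, preset genes, and the 3 nearest genes in pattern. Some listed genes were not analysed here. The members and lists were chosen with earlier results of these data known, so list counts are descriptions. Scripts were tested on simulated data. Alternatives were no rescaling, quantile normalization, other floors (20th or 60th percentile), a pseudocount of 50, averaged probe sets, probe sets without the x and s types, other chow references, and folds of 1.5 and 3. Spearman correlations between arrays were 0.911 to 0.946. The number of arrays limits the precision.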

Additional observations from a re-analysis of the deposited data

Results flagged for a closer look

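For 3 probe sets the diet array stood on opposite sides of its chow array at the 2 times, and with 1 array per group the difference was not tested. The 5' control of Pcx had a log2 ratio of 0.78 on the diet at 10 weeks and -0.68 at 1 week, a difference of 1.46. The other Pcx probe sets were positive at both times. Ppargc1a probe set 1434100_x_at was at -0.29 at 10 weeks, a bound because the diet signal is below the floor, and 0.29 at 1 week, a difference of -0.58. The Irs2 probe set was at -0.58 at 10 weeks and 0.03 at 1 week, a difference of -0.61, where the 1-week value is close to 0.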

How the results depend on the processing

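No paired analysis was possible because each group is 1 array. Against chow at 10 weeks, the diet had 1 gene at least 2-fold lower, which became 3 at a 1.5-fold rule and 0 at a 3-fold rule. At 1 week the counts of 0 became 1 higher at 1.5-fold, and 1 lower with the 10-week chow array as reference (G6pc, -1.21). Against that array 2.92% of all genes were at least 2-fold lower. Atorvastatin against chow had 3 lower, and 1 relative to the hepatocyte markers, a scale chosen after seeing the data, and 1 at 3-fold. It had 2 when probe sets were averaged, when the chow arrays were averaged and when the 1-week chow array was the reference. In these settings 1.31%, 1.21% and 1.87% of all genes were at least 2-fold lower. Shares of all genes at 1.5-fold, at 3-fold and on the hepatocyte scale were not taken. The counts for atorvastatin against the diet were 0 in both directions under all alternatives run. Of 377 values of the members under these alternatives, 348 moved by less than the spread of the chow pair and 29 by more. Of the 377, 24 changed sign, 0 of them after passing 2-fold. The 348 do not measure stability, because many could hardly move. No rescaling, the lower alternative floor and leaving out x and s probe sets left every member ratio unchanged to 2 decimals. Averaging changed only Pck1 and Ppargc1a, which have more than 1 ordinary probe set. Only the 1 and 3 lower genes above had passed 2-fold, so few values could reverse after passing it. Irs2 with atorvastatin against chow went from -0.98 to -0.09 with the floor at the 60th percentile, where its atorvastatin signal is itself at the floor. Averaging took Pck1 on the diet against chow at 10 weeks from -0.98 to -0.49. Its probe set 1455209_at, below the floor on all arrays, adds no difference to that mean. The hepatocyte scale shifts all genes of a comparison by the same amount. The cause of the remaining changes was not tested. The dim genes, Ppargc1a and Irs2, are limited by their nearness to the floor, and the spread of the chow pair, an SD of 0.44 to 0.54 on the log2 scale by quartile of signal, also holds time on chow and age.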
